A study of Zea mays with 448 samples.

Results

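The F1 hybrids of the maize inbred CML103 with the teosinte inbreds TIL03, TIL11 and TIL14 were described here. They were taken as the F1 libraries with CML103 as maize parent and 1 of these teosinte parents, with a maize share of reads between 45% and 55%. All 18 such libraries met that limit, out of 180 F1 libraries in the series: 2 labelled biological replicates of each of 3 crosses in each of 3 tissues, each sequenced in 2 lanes (36 of the 448 deposited samples). The tissues were the immature ear, the seedling leaf and the seedling stem with its shoot apical meristem, from plants started in growth chambers and later moved to a greenhouse. F1 and maize ears were taken singly and those of the teosinte inbreds were pooled from a plant. The libraries were compared with 68 F1 libraries of 12 crosses that share the teosinte parents: B73, Ki3 and W22 by all of them, Oh43 by TIL03 and TIL11, and Mo17 by TIL14. The inbreds CML103, TIL03, TIL11 and TIL14 were sequenced from the same tissues.

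CML103 is a tropical maize inbred bred at CIMMYT, and the TIL lines are inbreds of teosinte, the wild grass from which maize was domesticated. An F1 plant carries 1 maize and 1 teosinte copy of each chromosome in every nucleus, so that both alleles of a gene meet the same transcription factors. A departure of the allele reads from equality is therefore the usual measure of a cis difference, one carried by the chromosome itself, such as a change in a promoter or enhancer. Reads were counted by parental allele at segregating sites, those bases at which both parents of an F1 differ. Sites were summed per gene, and results are given as the CML103 share of these reads or as the log2 ratio of CML103 to teosinte reads.

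The CML103 libraries held between 815272 and 2078263 reads at segregating sites, and those of the other crosses 1024840 to 2447116. The tissue labels were checked with 3 sets of marker genes, in RPM, the reads of a set scaled to the library's total at segregating sites. Floral genes summed to 46.6 to 125 in ears and to at most 25.6 in leaf and stem, and photosynthesis genes to 733 to 8923 in leaves and to at most 67.5 elsewhere. The stem set, mostly KNOX homeobox genes, summed to 53.1 to 238 in stems, 203 to 908 in ears and at most 27.7 in leaves. Its median was higher in the ear (533) than in the stem (135), so this set did not mark the stem apart from the ear. Replicate libraries of a cross differed by more than counting noise, with 2.89 to 10.3 units of chi-square per gene, so that none was a repeat of another.

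The CML103 libraries of a cross differed in which genes gave CML103 reads. In 170 of 10122 genes of CML103xTIL03 (1.68%) the CML103 allele had under 5% of the reads in at least 1 library and 30% to 70% in another, among libraries with at least 20 reads of the gene. The number was 158 of 10049 genes in CML103xTIL11 (1.57%) and 91 of 9281 in CML103xTIL14 (0.980%), and the 3 crosses together held 365 different genes of this kind. In the other 12 crosses, with 4 to 8 libraries each against 6 for each CML103 cross, 8 to 27 genes were of this kind (0.083% to 0.267%). For the teosinte allele the counts were 21 to 28 genes in the CML103 crosses and 9 to 49 in the others, which overlap. These genes were noticed after the data had been seen, and no test was made of their number.

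The genes in question lay together on the chromosomes. In windows of 10 Mb, 33 windows of the CML103 crosses held at least 5 of them and no window of the other 12 crosses did. Of these places, 3 were found in all CML103 crosses: chromosome 1 at 180 to 190 Mb, chromosome 6 at 160 to 170 Mb and chromosome 10 at 0 to 10 Mb of the AGPv2 build. In the chromosome 5 window at 20 to 30 Mb, 15 genes of CML103xTIL03 had pooled CML103 shares of 2.31% in ear replicate 1, 1.25% in leaf replicate 1 and 0.593% in stem replicate 2. The other libraries of the cross had 44.6% in ear replicate 2, 40% in leaf replicate 2 and 47.3% in stem replicate 1. Either replicate could therefore be the one with few CML103 reads, and the 2 replicates of a tissue stood apart.

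On chromosome 6 at 160 to 170 Mb, 13 genes of CML103xTIL14 had CML103 shares of 0.593%, 0.215% and 0.485% in ear replicate 2, leaf replicate 1 and stem replicate 2. Their shares were 48.5%, 49.8% and 49.4% in the other replicate of each tissue. In CML103xTIL11 the same window split by tissue rather than by replicate: 9 genes had 53.4% and 50.4% in the 2 ears, 2.72% and 4.65% in the leaves and 2.21% and 3.11% in the stems. The chromosome 5 window at 200 to 210 Mb of CML103xTIL11 was alike, with 44.0% and 43.6% in the ears against 2.49% to 7.42% in leaves and stems over 13 genes. On chromosome 1 at 50 to 60 Mb of that cross, leaf replicate 1 (1.76%) and stem replicate 2 (2.85%) had few CML103 reads over 13 genes, while the other 4 libraries had 45% to 53.2%. In ears of that cross, 3 of these genes in replicate 1 and 4 in replicate 2 were also under 5%. The cause of these blocks was not tested. The contrast with other maize inbreds, the maize shares and the differences between teosinte parents are given below with and without such genes. The allele bias over libraries, the counts of nearly absent alleles and the chromosome medians are given with all genes only.

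**Figure D1:**
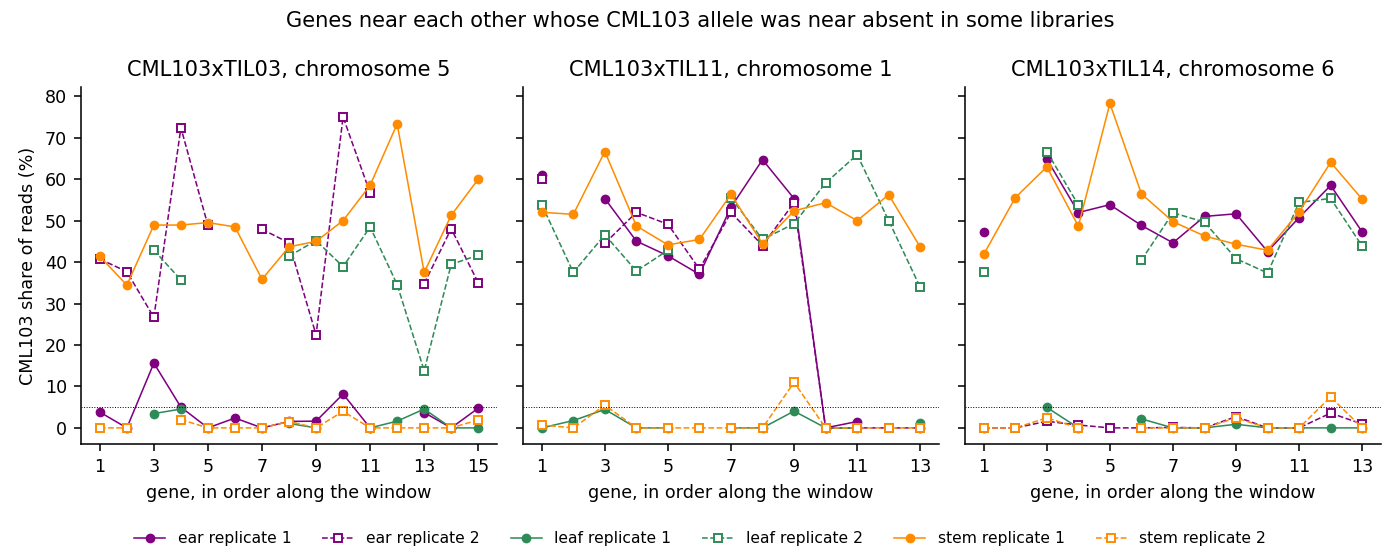
CML103 share of reads (percent, y axis) of each gene in order along the chromosome (x axis) in 3 windows of 10 Mb: CML103xTIL03 on chromosome 5, CML103xTIL11 on chromosome 1 and CML103xTIL14 on chromosome 6; colour gives the tissue, filled symbols and solid lines replicate 1, open symbols and dashed lines replicate 2, and the dotted line 5%. In the chromosome 5 window the libraries fall into 3 with pooled shares of 0.593% to 2.31% and 3 with 40% to 47.3%, and the split runs through each tissue.

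The first comparison asked which genes gave a different allele ratio with CML103 than with other maize inbreds crossed to the same teosinte parents. The CML103 allele was lower for 113 of 6455 genes tested in the ear, 76 of 5975 in the leaf and 103 of 6535 in the stem, and higher for 19, 8 and 19 genes (edgeR quasi-likelihood test of the interaction, Benjamini-Hochberg adjusted p below 0.05, 3 crosses against 12). The share of all genes called was 1.75% lower and 0.294% higher in the ear, 1.27% and 0.134% in the leaf, and 1.58% and 0.291% in the stem. Called genes had a median log2 difference of -2.13 in the ear, -2.50 in the leaf and -2.18 in the stem where CML103 was lower, and of 1.21, 1.93 and 1.13 where it was higher. In 80 of the lower genes in the ear, 57 in the leaf and 76 in the stem, each of the 3 CML103 crosses lay below every other cross. Other crosses with fewer than 10 reads of a gene were left out of this count. The same held for 140, 121 and 127 of all genes tested. In 104, 68 and 96 of the lower genes the pooled maize share of the other crosses lay between 40% and 60%. The CML103 share itself was 40% or more in 12, 2 and 7 of them.

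Genes whose CML103 allele was near absent in some libraries made up 30.1% of the lower genes in the ear, 36.8% in the leaf and 29.1% in the stem, against 3.36%, 3.46% and 3.34% of all genes tested. None of the higher genes was of this kind. These genes were picked for a low CML103 share in the same libraries, so this contrast follows in part from that choice. When genes with either allele near absent in some libraries were left out, 82 genes were called in the ear (67 lower), 48 in the leaf (42 lower) and 81 in the stem (68 lower), and all of these were also among the calls with all genes.

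A site with at least 10 reads and no CML103 read was present in 51.3% of the lower genes in the ear, 56.6% in the leaf and 48.5% in the stem, against 7.76%, 7.72% and 7.51% of all genes tested. Such sites were picked from reads of the same libraries, so the excess among lower genes follows in part from that choice. After such sites were dropped, 98, 62 and 90 of the lower genes could still be tested. Of these, 83, 47 and 76 were called again, and CML103 was lower in all that were tested. These sites were 1.47% to 1.99% of sites with at least 10 reads in CML103 crosses, 0.780% to 1.24% in B73, Ki3, Mo17 and Oh43 crosses and 1.98% to 2.84% in W22 crosses. Sequence that the alignment missed and an allele without transcripts cannot be told apart at a single site.

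The same contrast was computed with B73, Ki3 or W22 in the place of CML103, as a description, since these comparisons share crosses. In the ear 0.664% of genes were called for B73 (47 genes), 0.827% for Ki3 (51), 2.04% for CML103 (132) and 3.74% for W22 (228). In the leaf the counts were 27 (0.459%), 40 (0.731%), 84 (1.41%) and 221 (3.54%), and in the stem 45 (0.707%), 50 (0.779%), 122 (1.87%) and 239 (3.65%). CML103 thus stood between W22 and the other inbreds in each tissue, and most calls were lower for the named inbred in all of them. Leaving out genes near absent in some libraries moved the ear count to 82 for CML103, and to 45, 51 and 227 for B73, Ki3 and W22.

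**Figure D2:**
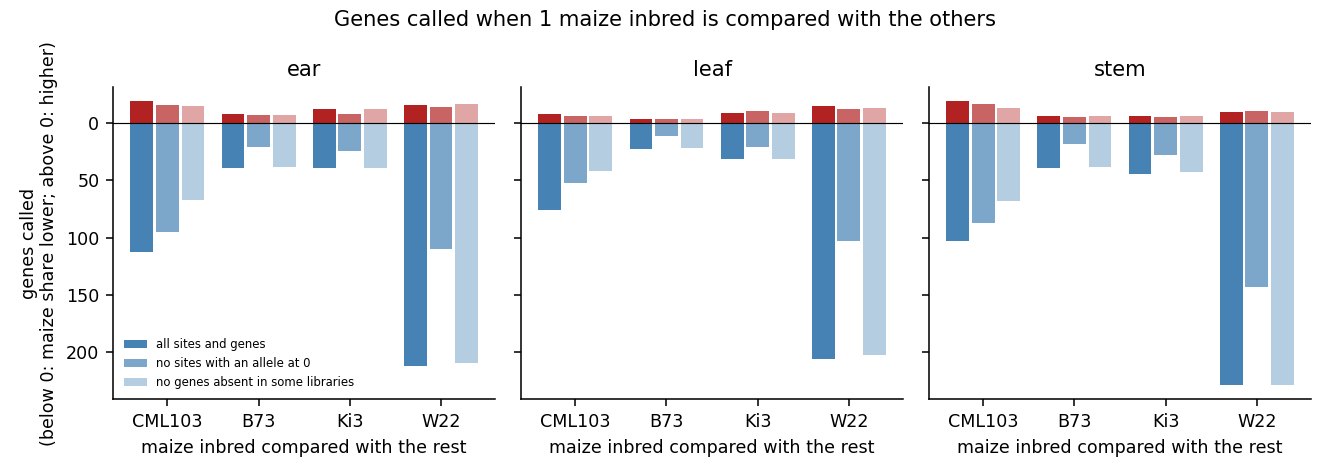
Number of genes called (y axis, lower below 0 and higher above 0) in the contrast of 1 maize inbred against the others, for CML103, B73, Ki3 and W22 in each tissue, with all sites, without sites with an allele at 0 and without genes near absent in some libraries. CML103 has 132, 84 and 122 calls with all sites, between W22 with 228, 221 and 239 and the remaining inbreds with 27 to 51.

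Across tissues, 219 genes were called in at least 1 tissue, 82 in at least 2 and 37 in all 3. The CML103 allele was lower in 35 of these 37 genes and higher in 2, rps6-2 and GRMZM2G047894, and 11 of the 37 were near absent in some libraries. Every gene called in 2 tissues had the same direction in both. The genes described next were chosen as the largest called differences, as called genes with a name, or as genes called in all tissues. The named genes found by a RefSeq synonym and those called in all tissues were picked after their values had been seen.

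The gene pdi2 (GRMZM2G163421), for a protein disulfide isomerase, which forms and rearranges disulfide bonds in proteins folding in the endoplasmic reticulum, gave almost no CML103 reads. It lies on chromosome 2, with segregating sites from 220540850 to 220543519 (AGPv2). The ear libraries held 0 CML103 and 390 teosinte reads over the 3 crosses, the leaf libraries 4 and 569, and the stem libraries 10 and 998. All 10 CML103 reads of the stem came from replicate 1 of CML103xTIL03, with 87 teosinte reads, and replicate 2 had 0 and 144. In the 10 other crosses with reads, the maize allele had 35.4% to 66.7% of reads in the ear (median 42.4%), 16.2% to 78.4% in the leaf (median 50.2%) and 32.1% to 58.2% in the stem (median 47.8%), so that no CML103 cross overlapped them. The difference was called in each tissue, with adjusted p of 3.2e-05, 0.0031 and 0.00035. It did not meet the rule above for genes near absent in some libraries only, although those 2 stem replicates differed. Over the tissues, 2 of 3 sites with at least 10 reads with TIL03, 2 of 4 with TIL11 and 1 of 3 with TIL14 had no CML103 read.

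GRMZM5G813217 on chromosome 7 (129966830 to 129970596), which has no name in the sources used here, was reduced but present in all 18 libraries. Its CML103 share was 17.6%, 16.3% and 17.2% in the ears of the crosses with TIL03, TIL11 and TIL14, 18.4%, 5.97% and 6.44% in the leaves and 13%, 7.21% and 10.6% in the stems. The 12 other crosses had 48.6% to 60.5% in the ear, 48.9% to 71.8% in the leaf and 38.3% to 64.2% in the stem, and none overlapped. The log2 difference was -2.57 ± 0.14 (SE) in the ear, -3.62 ± 0.28 in the leaf and -3.26 ± 0.25 in the stem, with adjusted p of 3.8e-07, 1.1e-05 and 9.7e-06. Reads of the inbreds, here and below, were counted only at sites that segregate in all 3 CML103 crosses. In the inbreds the gene had 3 to 12 reads in the CML103 libraries and 22 to 371 in the teosinte libraries, and the allele was also lower there in each tissue (adjusted p 0.026, 0.00038 and 0.00041).

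GRMZM2G169462 on chromosome 4 (241075804 to 241079386) had CML103 shares of 3.70% to 4.94% in the ear, 5.71% to 10.5% in the leaf and 5.26% to 11.4% in the stem. The other crosses had 35.5% to 65.0% over the 3 tissues. Its log2 difference was -4.40 ± 0.48, -3.34 ± 0.42 and -3.43 ± 0.31 in ear, leaf and stem (adjusted p 0.00011, 0.0010 and 4.2e-05). The CML103 inbred libraries held 0 or 1 read of this gene and the teosinte libraries 13 to 40.

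GRMZM2G128056 on chromosome 9 (12573137 to 12580127) differed between the crosses of the 3 teosinte parents. With TIL11 and TIL14 the CML103 share was 0% to 2.47% in every tissue, while with TIL03 it was 42.0%, 38.3% and 39.8% in ear, leaf and stem. The crosses with TIL11 and TIL14 each had only 1 site with at least 10 reads, at 0.53% and 1.17% over the tissues. The cross with TIL03 had 3 such sites, at 4.82% to 50.5%. Whether the difference lay in the parents or in the sites read was not tested. The 10 other crosses with reads ranged from 41.3% to 92.5% (median 54.6%) in the ear, from 39.5% to 95.8% (50.5%) in the leaf and from 44.0% to 96.5% (58.2%) in the stem. The ear share with TIL03 lay within that range, while its leaf and stem shares lay below the lowest. The CML103 share was called lower in all 3 tissues (log2 difference -4.35 ± 0.45, -5.20 ± 0.34 and -5.68 ± 0.53, adjusted p 0.00020, 1.1e-05 and 0.00014). The 3 CML103 crosses also differed among themselves in each tissue (adjusted p 0.00021, 0.0045 and 0.0028).

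RBR1 (GRMZM2G003043), a retinoblastoma-related protein that holds cells before DNA replication, had a CML103 share of 31.1% in the ear against 49.0% in the other crosses, 34.1% against 45.8% in the leaf and 36.0% against 49.8% in the stem. The lowest of its cross shares were those with TIL14, at 24.3%, 27.0% and 27.1%. All 3 CML103 crosses lay below the 12 others in each tissue, with a log2 difference of -1.09 ± 0.16, -0.78 ± 0.18 and -0.91 ± 0.18 (adjusted p 0.0021, 0.045 and 0.024). With TIL14 the median share over its sites was 2.22%, and 2 sites with TIL11 and 1 with TIL14 had no CML103 read. At the sites of this gene that segregate in all 3 CML103 crosses, the CML103 inbred had 0 reads in all of its libraries and the teosinte inbreds 13 to 54.

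spp1 (GRMZM2G055489), a sucrose-phosphate phosphatase, the last enzyme of sucrose synthesis, had CML103 shares of 28.9% to 42.2% over crosses and tissues, against 44.4% to 62.9% in 9 other crosses, with no overlap in any tissue. The log2 difference was -0.92 ± 0.19, -0.76 ± 0.14 and -0.87 ± 0.17 in ear, leaf and stem (adjusted p 0.035, 0.027 and 0.027). Its sites were uneven. The lowest site share over the tissues was 5.63%, 3.54% and 4.17% with TIL03, TIL11 and TIL14, while the median over sites was 48.6%, 49.1% and 44.8%. The CML103 inbred gave 13 to 31 reads and the teosinte inbreds 41 to 153, with adjusted p of 0.0086, 0.0088 and 0.0045 for the lower level in CML103. In such a comparison of whole tissues, fewer cells that express a gene and less RNA per cell cannot be told apart.

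Several of the largest differences came from genes that were near absent in some libraries only. GRMZM2G372297 on chromosome 3 (226956072 to 226959693) had 0 CML103 reads in all 6 ear libraries, against 156 teosinte reads, and in all 6 stem libraries, against 131. In the leaf, CML103xTIL03 replicate 2 had 179 CML103 and 156 teosinte reads while replicate 1 had 0 and 290, and the other 4 leaf libraries had 0 CML103 reads. The CML103 inbred had 3 to 11 reads of this gene and the teosinte inbreds 3 to 25, and their difference could be tested in the leaf alone, where it was not called (adjusted p 0.25). GRMZM2G061681, nearby on chromosome 3 (225447900 to 225454135), had 4 CML103 to 95 teosinte reads in leaf replicate 1 of CML103xTIL03 and 61 to 73 in replicate 2, and its CML103 share in the ears was 4.07% to 6.99%. GRMZM2G079109 on chromosome 2 (194037879 to 194041402) had 20 CML103 and 20 teosinte reads in leaf replicate 2 of CML103xTIL11 and 15 and 16 in stem replicate 1, while the other CML103 libraries held 0 or 1 CML103 read.

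GRMZM2G469111 on chromosome 5 (213944893 to 213946997) had a CML103 share of 15.1% in the ear, 13.4% in the leaf and 15.2% in the stem, against 49.8%, 47.2% and 49.1% in the other crosses. It lies in the window at 210 to 220 Mb, where 6 genes of CML103xTIL03 and 12 of CML103xTIL11 were near absent in some libraries. The sites of GRMZM2G469111 differed widely, since CML103 shares ran from 0% to 60.3% over sites, and 8 of 17 sites in CML103xTIL03, 6 of 15 in CML103xTIL11 and 6 of 7 in CML103xTIL14 had no CML103 read. In the inbreds CML103 held 76 to 268 reads and the teosinte lines 151 to 520, and no tissue was called (adjusted p 0.39, 0.15 and 0.94).

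The CML103 allele of rps6-2 (GRMZM5G851698), for ribosomal protein S6 of the small ribosomal subunit, was higher in each tissue. The gene lies on chromosome 2, with sites from 212138335 to 212138736. Its CML103 shares with TIL03, TIL11 and TIL14 were 74.4%, 68.1% and 66.6% in the ear, 67.9%, 62.1% and 63.7% in the leaf and 71.9%, 65.9% and 67.4% in the stem. The 10 other crosses had 45.3% to 61.7% in the ear, 47.5% to 58.1% in the leaf and 43.9% to 58.0% in the stem, and the groups did not overlap. The log2 difference was 1.02 ± 0.14, 0.73 ± 0.15 and 1.08 ± 0.13 (adjusted p 0.0020, 0.042 and 0.00090), and each CML103 library had more CML103 than teosinte reads.

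GRMZM2G047894 on chromosome 9 (137737107 to 137756535), also higher in each tissue, was most uneven with TIL03. The CML103 share was 82.3%, 64.4% and 57.4% in the ears of the crosses with TIL03, TIL11 and TIL14, 88.0%, 63.5% and 57.7% in the leaves and 81.4%, 65.9% and 58.5% in the stems. The other crosses had 37.0% to 64.4% over the tissues, so that the crosses with TIL11 and TIL14 overlapped them in part. The log2 difference was 1.15 ± 0.24, 1.26 ± 0.28 and 0.96 ± 0.21 (adjusted p 0.025, 0.045 and 0.033). With TIL03 the gene had 2 sites with at least 10 reads, at CML103 shares of 61.3% and 99.8% over the tissues. At sites that segregate in all 3 CML103 crosses, the TIL03 inbred libraries held 0 reads of the gene in all tissues, and the CML103 libraries 26 to 44. The F1s with TIL03 did give TIL03 reads of it.

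lox1 (GRMZM2G156861), a lipoxygenase, one of the enzymes that add oxygen to fatty acids on the way to defence signals, leaned toward CML103 in every cross. It lies on chromosome 3, with sites from 168696832 to 168838817. The CML103 share with TIL03, TIL11 and TIL14 was 95.2%, 91.6% and 90.2% in the ear, 98.2%, 66.8% and 83.7% in the leaf and 78.4%, 75.7% and 91.8% in the stem. The other 12 crosses spread widely, from 30% to 95.7% in the ear (median 71.7%), from 21.5% to 93.8% in the leaf (median 59.6%) and from 42.0% to 88.6% in the stem (median 57.7%), and overlapped with CML103. The log2 difference was called in the leaf (2.60 ± 0.44, adjusted p 0.010) and the stem (1.81 ± 0.43, adjusted p 0.047), and was 2.28 ± 0.57 in the ear with an adjusted p of 0.063. In the inbreds, CML103 had 86 and 56 reads in ear against 1 to 12 in teosinte, 418 and 471 in leaf against 37 to 62, and 238 and 198 in stem against 24 to 291. The level in CML103 was called higher in ear and leaf (log2 3.14, adjusted p 0.0015, and 3.71, adjusted p 5.3e-06) and was 0.75 in stem with an adjusted p of 0.46.

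**Figure D3:**
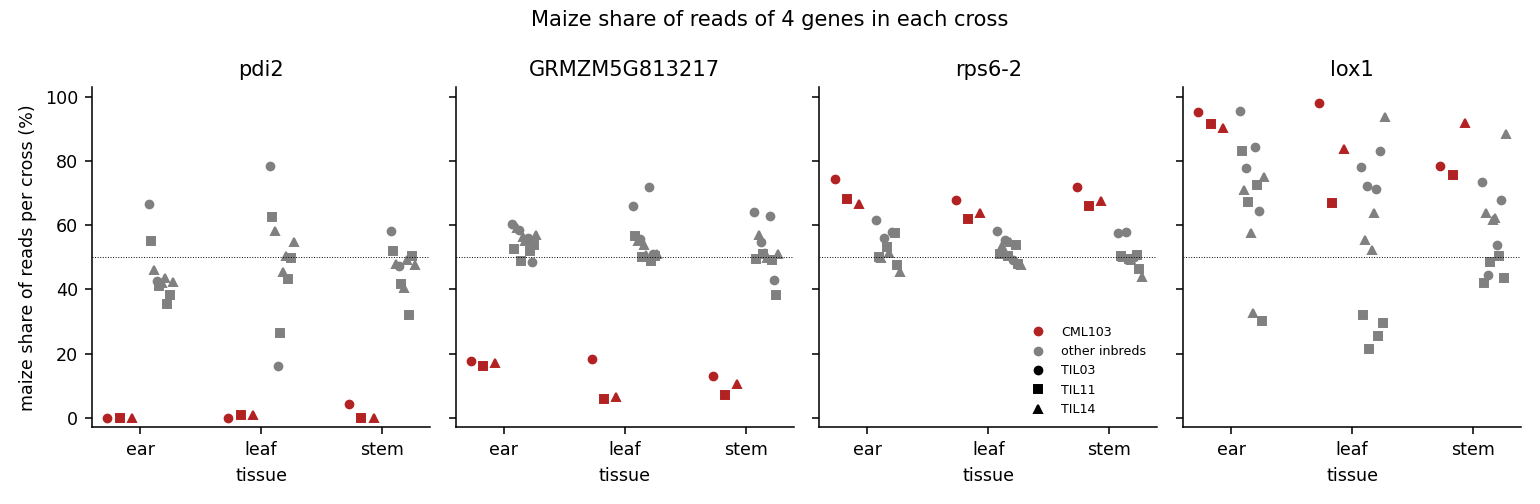
Maize share of reads (percent, y axis) of pdi2, GRMZM5G813217, rps6-2 and lox1 in each tissue (x axis), with 1 point per cross, CML103 crosses in red and crosses of other maize inbreds in grey, and the symbol giving the teosinte parent. For pdi2 the CML103 crosses lie at 0% to 4.15%, and for rps6-2 at 62.1% to 74.4%, above the crosses of the other inbreds, while for lox1 both groups overlap.

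Further genes with a known product were called in 1 tissue. In the ear the CML103 allele was lower for dek1 (GRMZM2G321753), a membrane calpain needed for the outer layer of the kernel, with cross shares of 42.6%, 42.5% and 38.1% against 49.5% to 55.8% in the 12 other crosses (log2 difference -0.66 ± 0.10, adjusted p 0.0030). In each of the 3 crosses 1 dek1 site had no CML103 read, and the median over sites was 47.4%, 51.1% and 41.8% over the tissues. The CML103 allele was also lower in the ear for SGT1 (GRMZM2G149704), a partner of chaperones in immune signalling, at 36.7%, 40.8% and 44.6% against 45.8% to 64.1%. The cell cycle inhibitor gene krp1 (GRMZM2G129569) had 29.1%, 49.3% and 18.5% in the ear against 47.0% to 56.6%, so that its lower call (adjusted p 0.0499) came from the crosses with TIL03 and TIL14. The histone deacetylase gene rpd3 (GRMZM2G457889) had 36.2%, 21.9% and 48.2% against 40.8% to 59.2%. Its sites ran from 1.33% to 95.2% with TIL03, 0.283% to 51.8% with TIL11 and 1.25% to 64.4% with TIL14, over the tissues. Each CML103 inbred library had 0 reads of it at sites that segregate in all 3 CML103 crosses, while other sites gave CML103 reads in the F1s. In the stem the potassium transporter gene HAK15 (GRMZM2G121063) was lower at 45.5%, 45.4% and 44.3% against 47.2% to 63.7%.

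ANT1 (GRMZM5G837108), which exchanges ADP and ATP across the mitochondrial inner membrane, varied by cross and library. It lies on chromosome 5 (203546904 to 203548430), in the window at 200 to 210 Mb described above, and the CML103 share in single libraries of CML103xTIL11 was 4.60% to 50%. The CML103 share in ear, leaf and stem was 6.47%, 1.18% and 4.24% with TIL03, 49.6%, 11.6% and 6.88% with TIL11, and 56.7%, 44.1% and 48.1% with TIL14. The difference from other inbreds was called in the stem (log2 -2.81 ± 0.59, adjusted p 0.028), where the 12 other crosses had 46.7% to 52.0%. The CML103 inbred had 94 and 26 reads in stem against 337 to 474 in teosinte.

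In total reads, CML103 F1s carried slightly fewer maize reads than F1s of most other inbreds. The maize share was 48.2% to 50.0% over the 18 CML103 libraries, of which 17 were below 50%, while none of the B73, Ki3, Oh43 and Mo17 libraries was (50.0% to 52.0%) and 16 of 17 W22 libraries were (47.9% to 50.2%). In the ear the mean over crosses was 49.2% ± 0.30 (SD, n = 3) for CML103 and 50.2% ± 0.62 (n = 12) for the others, a difference of -1.01 percentage points (p = 0.016, exact two-sided permutation test within teosinte parent). In the leaf it was 49.2% ± 0.43 against 50.1% ± 0.76, a difference of -0.973 (p = 0.040, exact permutation), and in the stem 49.0% ± 0.69 against 50.2% ± 0.56, a difference of -1.15 (p = 0.032, exact permutation). The adjusted p was 0.040 in each of the 3 tissues, and the smallest p that the 125 arrangements allow is 0.008. CML103 was lower with each teosinte parent in each tissue, by 0.413 to 1.83 points, and lower in all 3 of the sequencing pools of each tissue that held libraries of both kinds. The sign for a single parent turned in some alternatives: at sites that segregate in all crosses of a teosinte parent the difference was 0.362 with TIL03 in the ear and 0.445 in the stem, and without replicate 1 it was 0.129 with TIL14 in the leaf.

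Genes near absent in some libraries were left out as an alternative. In CML103 crosses most of them were picked for a low CML103 share in these same libraries. Leaving them out therefore raises the CML103 share by construction, and the smaller difference does not show what they contributed. Without them the difference was -0.762 points in the ear, -0.693 in the leaf and -0.844 in the stem, and the adjusted exact permutation p rose to 0.132, 0.208 and 0.12. Without W22 the differences were -1.33, -1.34 and -1.44 (p = 0.0156 in each, exact permutation over 64 arrangements, the smallest possible). W22 was left out after the shares had been seen, and it was the only other inbred with libraries below 50%. The smallest possible p followed from that choice and is no further test. At sites that segregate in all crosses the differences were -0.716, -0.535 and -0.801 and none was called.

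**Figure D4:**
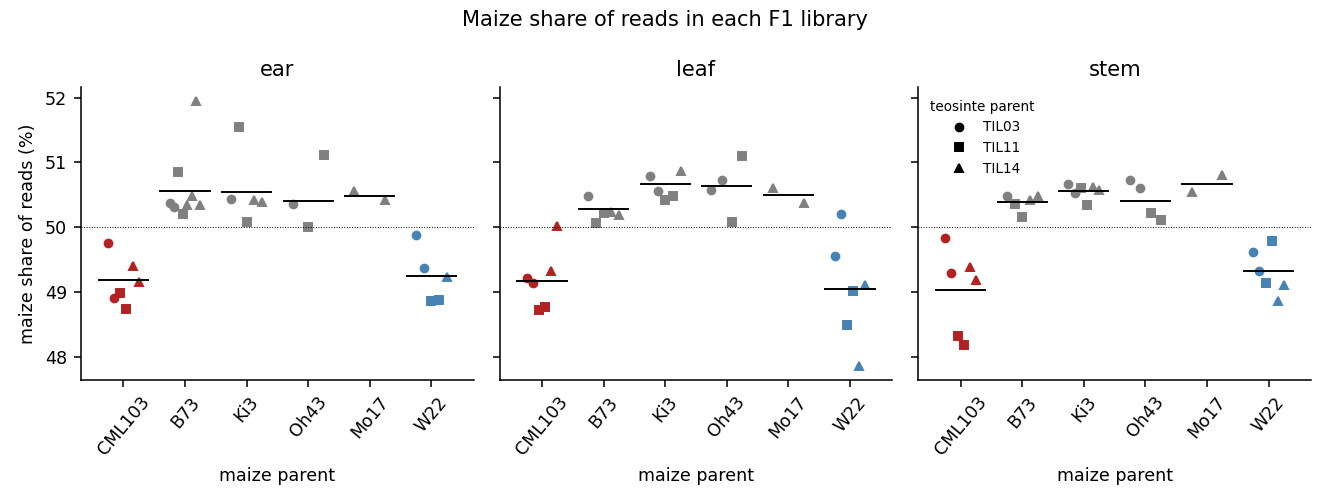
Maize share of reads at segregating sites (percent, y axis) of each F1 library, grouped by maize parent and tissue (x axis), with symbols for the teosinte parent, a black bar for the mean of the crosses and a dotted line at 50%. The CML103 libraries lie between 48.2% and 50.0% and the W22 libraries between 47.9% and 50.2%, below those of B73, Ki3, Oh43 and Mo17.

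The next comparison asked whether the CML103 allele differed from the teosinte allele over the 3 crosses. With the cross as the unit, 0 of 6736 genes in the ear, 0 of 6250 in the leaf and 0 of 6824 in the stem were called by edgeR, whereas 718, 648 and 676 genes had an unadjusted p below 0.05. DESeq2 called 313 (4.65%), 370 (5.92%) and 364 (5.33%). With libraries as the unit edgeR called 285 genes in the ear (4.23%), with CML103 higher in 121 (1.8%) and lower in 164 (2.43%). It called 173 in the leaf (2.77%), 74 higher (1.18%) and 99 lower (1.58%), and 256 in the stem (3.75%), 101 higher (1.48%) and 155 lower (2.27%). These calls take the spread between libraries and not that between crosses as the error, and the genes named from them were picked because the fit over crosses gave none. Replicates of a cross are labelled with the same parent inbreds, and the labels do not say whether the same parent plants were used.

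The median log2 ratio of all genes was near 0 in each tissue, at -0.00014 in the ear, 0.0029 in the leaf and 0.0034 in the stem. Among the calls over libraries, phyB2 (GRMZM2G092174), a red light receptor, had 183 CML103 and 360 teosinte reads in the ear (33.7%, adjusted p 0.037), close to the 36.3% of the other crosses. TUBB2 (GRMZM2G334899), a beta-tubulin of the microtubules, had 63.4% in the ear and 69.0% in the stem. The gene afd1 (GRMZM2G059037), a cohesin subunit of meiotic chromosomes, had 89.8% in the leaf and 86.1% in the stem, and the other crosses 85.2% and 83.1%. OsMADS56 (GRMZM2G070034), a MADS-box gene that the study lists as a domestication candidate, had 89.4% in the leaf (adjusted p 0.034), against 90.2% in the other crosses, and 58.4% in the ear, where it was not called.

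A few genes had 1 allele nearly absent over all 3 crosses. Under 3% of reads came from CML103 in 19 genes in the ear (0.282%), 12 in the leaf (0.192%) and 16 in the stem (0.234%), and from teosinte in 7, 5 and 6. For the maize allele of B73 the counts were 21, 17 and 18 genes, for Ki3 12, 9 and 12, and for W22 45, 66 and 48. For the teosinte allele they were 24, 10 and 12 with B73, 6, 9 and 8 with Ki3, and 2, 6 and 4 with W22, and no test was made of these numbers. The extreme on the teosinte side was GRMZM2G161868, annotated as a pseudogene in RefSeq, with 742 CML103 and 0 teosinte reads in the ear, 1551 and 0 in the leaf and 1372 and 1 in the stem. In the other crosses this locus was at 0% to 0.11% for B73 and W22 and at 100% for Ki3, Mo17 and Oh43. GRMZM2G050268 on chromosome 2 (196302788 to 196304845) had 13 CML103 and 1167 teosinte reads in the ear, yet 89 and 92 in stem replicate 1 of CML103xTIL11 and 1 and 106 in replicate 2.

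The 3 CML103 crosses also differed among themselves. The ratio changed with the teosinte parent for 1080 genes in the ear (16.0% of those tested), 898 in the leaf (14.4%) and 915 in the stem (13.4%), by the edgeR test with libraries as the unit. Of 1699 genes called in at least 1 tissue, 392 were called in all 3. Genes near absent in some libraries were 9.44%, 6.68% and 6.12% of these calls against 3.37%, 3.47% and 3.34% of all genes tested, and without them 1223, 1106 and 1145 genes were called.

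HMG11 (GRMZM2G156785), a high-mobility-group protein of chromatin, was among the genes with the widest range of ratios over the crosses. HMG11 had 0 CML103 reads with TIL03 in both ears (687 and 241 teosinte reads), in both leaves and in stem replicate 2 (290 teosinte reads), but 224 CML103 and 228 teosinte reads in stem replicate 1. With TIL11 it had 44.4%, 57.5% and 44.7% in ear, leaf and stem, and with TIL14 50.9%, 48.5% and 53.6%. It was thus among the genes that changed between libraries of a cross.

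The inbred parents gave a measure of the same alleles in other plants, counted by the same alignment. CML103 was lower than the teosinte inbreds for 124 of 2781 genes in the ear (4.46%), 219 of 2139 in the leaf (10.2%) and 269 of 2070 in the stem (13%), and higher for 21 (0.755%), 149 (6.97%) and 157 (7.58%). Of the genes whose CML103 allele was lower in the F1 contrast, 51, 31 and 35 could be tested in the inbreds. The inbred CML103 had a lower level in 45, 25 and 28 of these, and was called lower in 23 (45.1%), 11 (35.5%) and 14 (40%). Their median log2 difference was -1.59, -0.61 and -0.95. Of the few genes with a higher CML103 allele, 8, 3 and 6 could be tested and 6, 3 and 6 were higher in the inbred, of which 0, 1 and 2 were called. TIL03 had 1 inbred library in leaf and in stem, and the inbreds differ from the F1s in all of their genes, so that these levels hold both cis and trans differences.

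Genes near absent in some F1 libraries were called lower in the CML103 inbred in 24 of 93 cases in the ear (25.8%), 28 of 66 in the leaf (42.4%) and 31 of 74 in the stem (41.9%), against 4.46%, 10.2% and 13% of all genes. The remaining genes of this kind were not called lower in the inbred.

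Lists of genes from maize domestication and metabolism were counted as well, although few members were measured in all 3 crosses, at most 3 in a list and tissue. Of the 9 lists, the defence list alone held a member called against other inbreds, lox1. In the starch and sucrose list, sh1 (GRMZM2G089713), a sucrose synthase, had a CML103 share of 31.1% in the ear, 23.6% in the leaf and 23.1% in the stem against 51.5%, 41.8% and 47.7% in the other crosses, but the difference was not called (adjusted p 0.245, 0.084 and 0.162). Its ratio did change with the teosinte parent in ear and stem (adjusted p 0.00022 and 0.031). me3 (GRMZM2G085019), the NADP-malic enzyme of C4 photosynthesis, had 13320 CML103 and 11008 teosinte reads in the leaf (54.8% against 35.0%, adjusted p 0.54) and changed with the teosinte parent (adjusted p 0.0022). y1 (GRMZM2G300348), the phytoene synthase of yellow kernels, had 50.4% in the leaf against 40.5% (log2 difference 0.58 ± 0.15, adjusted p 0.084). fea2 (GRMZM2G104925), a receptor that limits the size of the ear meristem, had 46.6%, 47.8% and 49.2% in ear, leaf and stem, and the squamosa-promoter factor ub3 (GRMZM2G460544) had 60.6% in the ear and 59.1% in the stem, none of them called.

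Taken over whole chromosomes, the median allele ratio was near equality except on chromosome 10. There the median log2 ratio of CML103 to teosinte was -0.15 in the ear, -0.23 in the leaf and -0.16 in the stem, whereas the medians of the other chromosomes were -0.02 to 0.06. Single windows of 10 Mb departed further, among them chromosome 5 at 170 to 180 Mb, with medians of -0.93 in the ear, -0.77 in the leaf and -0.81 in the stem, and chromosome 1 at 50 to 60 Mb, with -0.50, -0.52 and -0.46. Both windows, chosen after their values were seen, held genes of which the CML103 allele was near absent in some libraries (7 of 54 genes in CML103xTIL03 for the chromosome 5 window, and 9 of 80 in CML103xTIL03 and 13 of 66 in CML103xTIL11 for the other). The difference from the other maize inbreds was smaller on chromosome 10, with medians of -0.06, -0.08 and -0.04. Genes called against other inbreds were 2.12%, 2.61% and 2.40% of those tested on chromosome 10 and between 0.447% and 2.72% on the others.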

How the data were processed

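The authors deposited read counts per sequencing lane, 1 line per transcript and segregating site. They made a transcriptome for every inbred from B73 (AGPv2) and its variants, aligned F1 reads by Bowtie to those of both parents at once without mismatches, and counted at sites that genomic reads of both parents covered. The deposited counts are raw and were not normalized. Reads that carry a variant the calls missed are lost in such an alignment, so that an allele can be undercounted at a site.

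Here the lanes of a library were summed, a site found on several transcripts of a gene was taken from the most deeply read transcript alone, and sites were summed per gene. Groups came from the sample labels. Genes needed 100 reads over the 3 CML103 crosses and 10 in each. Allele counts were tested with edgeR's quasi-likelihood test (version 4.0.16, R 4.3.3), each tissue apart, with equal library sizes for both alleles of a cross, the cross as a block and p-values adjusted by Benjamini-Hochberg over all genes, called below 0.05. Replicate libraries were summed per cross, except between teosinte parents, where they were the unit. Inbred libraries were scaled by TMM and tested at sites of all 3 CML103 crosses. Maize shares were compared by exact permutation tests over crosses. DESeq2 1.42.0, other units, minimums, sites and crosses, and leaving out replicates or parents, were alternatives. The tests were also run on simulated counts. For the allele bias over crosses, edgeR recovered few of the smaller simulated differences, and DESeq2 recovered more of them with more false calls. Other tools were Python 3.11.15, numpy 2.4.6, pandas 2.3.3, scipy 1.17.1 and matplotlib 3.10.9.

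Libraries held 815272 to 2078263 reads in CML103 crosses. Depth limits a gene's share through counting error alone, and replicate spread was larger. Of 42473 gene models with sites, 15645 matched a RefSeq entry, used for names only, and 162 had a symbol. No sequence was printed, and no coordinates of that other build were used.

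Named genes were, in each tissue: genes with an identifier in the study's list of domestication genes, the largest allele biases and differences from other inbreds in each direction (3 of any genes, 2 of genes with a name, 2 of near absent alleles), the 2 widest ranges over teosinte parents, and called members of the lists. Of these, 1 gene is not reported here. As the allele bias over crosses called none, its parts were taken from the fit over libraries. Genes named by a RefSeq synonym and genes called in all tissues were added after their values were seen. The members, lists and tests were chosen with earlier results of these data known.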

Additional observations from a re-analysis of the deposited data

Results flagged for a closer look

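The maize share of reads differed between CML103 F1s and F1s of other maize inbreds by -1.01 percentage points in the ear, -0.973 in the leaf and -1.15 in the stem, by the exact permutation tests given above. The allele ratio of single genes differed between these groups for 132 genes in the ear, 84 in the leaf and 122 in the stem, and between the teosinte parents of CML103 F1s for 1080, 898 and 915 genes, by tests of the interaction itself (edgeR quasi-likelihood).

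A cross that the comparisons did not use, CML103xTIL25, had a maize share far from 50%. It was 31.1% and 31.9% in its leaf libraries and 31.8% and 31.5% in its stem libraries. The other crosses by TIL25 with B73, Oh43 and W22 had 49.2% to 51.0% over 13 libraries, and Mo17xTIL25 had 96.3% to 99.4% over 4. The cause of these shares was not tested.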

How the results depend on the processing

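The number of genes called against other inbreds depended on the setting in each tissue, while its direction did not, with CML103 lower for most calls. In the order ear, leaf and stem, against 132, 84 and 122 genes, the counts were 41, 21 and 28 at an adjusted p of 0.005, 503, 366 and 463 with libraries as the unit, 368, 298 and 362 with DESeq2, 40, 25 and 39 with the deepest site of a gene, and 18, 18 and 15 with sites shared by all crosses. They were 69, 33 and 50 without B73 crosses, 74, 49 and 65 without Ki3 crosses, and 82, 48 and 81 without genes near absent in some libraries. A minimum of 50 reads per cross gave 80 in the ear, and leaving out W22 crosses gave 75 in the stem. Leaving out 1 teosinte parent or replicate gave 53 to 93, 21 to 69 and 48 to 91, the lowest without replicate 1 in ear and leaf and without TIL11 in stem. Fewer samples or sites enter these last fits.

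The allele bias over crosses had no call in any tissue with all libraries. It had 285, 173 and 256 with libraries as the unit, 313, 370 and 364 with DESeq2, 1 in the leaf with the deepest site, and 2283, 2300 and 2479 by exact binomial tests on summed reads at 0.005, which leave out the spread between crosses. Leaving out 1 replicate or teosinte parent gave 0 to 0 in each tissue. Differences between teosinte parents fell to 468, 283 and 300 genes at 0.005. The comparison of inbreds gave 67, 87 and 121 at 0.005, 324 in the ear with DESeq2, and 12 to 66, 35 to 179 and 35 to 36 without 1 replicate, where 1 library per inbred is assumed to vary like the others.

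Replicate numbers came from the labels and did not pair the libraries, since deviations of same-numbered libraries correlated by -0.07 to 0.12. The fit with the replicate block called 438, 351 and 447 genes against other inbreds and 122, 41 and 72 for allele bias.

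The difference in maize share kept its sign in all alternatives run and lost its call in several: with shared sites (-0.716, -0.535 and -0.801), as the median log2 ratio (-0.0237, -0.0174 and -0.0207), without genes near absent in some libraries (-0.762, -0.693 and -0.844) and, in the leaf, with the deepest site (-0.806). Without 1 replicate it was -1.24 to -0.915, -0.914 to -0.889 and -1.28 to -1.01, with adjusted p of 0.05 or above. In the same contrast for other inbreds, without sites with an allele at 0, B73 had 28, 15 and 23 calls, Ki3 32 in the ear and 33 in the stem, and W22 124, 115 and 154.

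Of the values of named genes against other inbreds, 1644 kept their call under an alternative, 639 lost it and 5 reversed. Those were in the ear GRMZM2G056075 (mus1; 0.144 with the deepest site, 0.196 with shared sites), GRMZM2G170434 (0.165 with shared sites) and GRMZM2G377165 (SE1B; 0.226 with shared sites), and in the stem GRMZM2G029478 (0.283 with the deepest site). The share kept differed by alternative. With the deepest site 48 values kept their call, 71 lost it and 2 reversed, and with shared sites 18 kept it, 19 lost it and 3 reversed. With the replicate block all 147 kept it, and with DESeq2 145 did and 2 lost it. The cause of these changes was not tested. Alternatives that left out W22, sites with an allele at 0 or genes near absent in some libraries were chosen after seeing the data.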

Other observations

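Other genes outside the comparisons described above were called in single tissues. In the stem the CML103 allele was higher for GRMZM2G474602 on chromosome 1 (72.2%, 90.5% and 72.1% with TIL03, TIL11 and TIL14, against 23.7% to 70.5% in 10 other crosses, log2 difference 2.56 ± 0.47, adjusted p 0.013) and for GRMZM2G435592 on chromosome 4 (62.6%, 92.5% and 87.5% against 33.6% to 69.6%, adjusted p 0.030), by edgeR's quasi-likelihood test. In the ear it was lower for ARF16 (GRMZM2G028980), an auxin response factor, at 50.0%, 36.1% and 42.6% against 45.5% to 59.4%. In the ear it was also lower for rld1 (GRMZM2G109987), a homeobox gene of upper leaf identity, at 45.2%, 32.8% and 49.3% against 48.6% to 60.9%. The CML103 crosses overlapped the others for ARF16, rld1 and GRMZM2G435592, and did not for GRMZM2G474602.

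GRMZM5G874190 on chromosome 10 had a CML103 share of 35.4% to 43.0% in the ear and 46.1% to 62.7% in the leaf, against 0% to 1.08% in the 3 crosses it could be compared with, which were all of W22. Its higher call in ear and leaf (adjusted p 0.023 and 0.018) thus compares CML103 with W22 alone.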
